A study of Mus musculus with 9 samples.

Results

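The genes described here carry sodium and water transport in the principal cell, the main cell type of the renal collecting duct, and their signal was followed in sorted mouse podocytes. The set has 10 genes: the water channels Aqp2, Aqp3 and Aqp4, the vasopressin receptor Avpr2, the epithelial sodium channel subunits Scnn1a, Scnn1b and Scnn1g, the sodium pump regulator Fxyd4, the steroid enzyme Hsd11b2 and the mineralocorticoid receptor Nr3c2. A probe set (the group of array probes read as 1 value) belonged to the set when the platform annotation gave it exactly 1 of these symbols, which gave 15 probe sets of 45037, and 10 genes of 18193 with a symbol of their own. Aqp3 had 4 probe sets, Aqp4 had 3 and the other 8 genes had 1 each.

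The series compared podocytes of 5 OVE26 diabetic mice with those of 4 normal FVB mice, all aged 3 to 4 months, with 1 array per mouse. OVE26 is a transgenic mouse model of type 1 diabetes kept on the FVB strain. The labels give the diabetic mice the genotype OVE-GFP and the FVB mice the genotype wild type, both on FVB background, and the design text says that mice with enhanced green fluorescent protein in podocytes were crossed with OVE26. Glomeruli were collected from perfused kidneys on magnets, dissociated with trypsin and passed through a fluorescence sorter, and the labels do not say whether the FVB mice carried the reporter. Sorted cells are the material of every array, so fewer cells of a type and less RNA per cell cannot be told apart. The spread between arrays holds differences between mice, sorts and amplifications together. Every value is the log2 intensity of a probe set, and a difference is the OVE26 mean less the FVB mean of these log2 values.

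Principal cells reabsorb sodium through the epithelial sodium channel on their luminal side and pump it out at the base with the sodium pump. Aldosterone raises this transport through the mineralocorticoid receptor, which Hsd11b2 keeps free of glucocorticoid. Vasopressin, acting through Avpr2 and cyclic AMP, moves Aqp2 to the luminal membrane, and water leaves at the base through Aqp3 and Aqp4. Most of these genes are known chiefly from the tubule.

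The podocyte identity of the sorts was plain in both groups: the mean level of 15 podocyte markers measured ran from 10.70 to 11.20 in OVE26 and from 11.15 to 11.41 in FVB arrays. Podxl, the sialomucin of podocyte processes, was at 12.99 ± 0.04 (SD, n = 5) on the OVE26 arrays and 13.10 ± 0.02 (SD, n = 4) in FVB arrays. The sorts also held signal of tubule, endothelial and mesangial genes in both groups, and OVE26 2 stood apart by a low mean of 16 proximal tubule markers (6.20, against at least 8.10 in the FVB arrays). Array medians lay between 5.07 and 5.15, and 2 arrays of a group correlated at r of 0.960 to 0.989 over their probe sets, a description with no test. Arrays of different groups correlated at r of 0.964 to 0.984. Xist was above the Y-linked genes in 3 OVE26 arrays (2, 3 and 5) and 1 FVB array (2), so sex was mixed in both groups.

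Of the 10 genes, Fxyd4 rose in OVE26 arrays and the other 9 did not pass the threshold when each gene was read by its brightest probe set (limma, Benjamini-Hochberg adjustment over all genes, threshold 0.05). Over all 18193 genes 0.473% were called higher and 0.132% lower. The median difference of the 10 genes was 1.10, against 0.01 for all genes. In 9 of the 10 the difference was above 0 (52.6% of all genes), with Nr3c2 as the exception. The same 9 had an unadjusted p under 0.05, all higher, where 9.03% of all genes were higher and 6.07% lower at that level. In 6 of the 10 (Aqp2, Aqp3, Aqp4, Scnn1b, Hsd11b2 and Fxyd4) every OVE26 array lay above every FVB array, as was so for 3.64% of the genes tested. When every probe set was tested singly and adjusted over all of them, 2 of the 15 rose, 1 of Fxyd4 and 1 of Aqp4, against 0.195% of all probe sets higher and 0.0755% lower, and 8 of the 15 had no overlap between groups with OVE26 above, against 2.67%. The members were chosen with earlier results of these data known, so these counts describe the set.

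**Figure D1:**
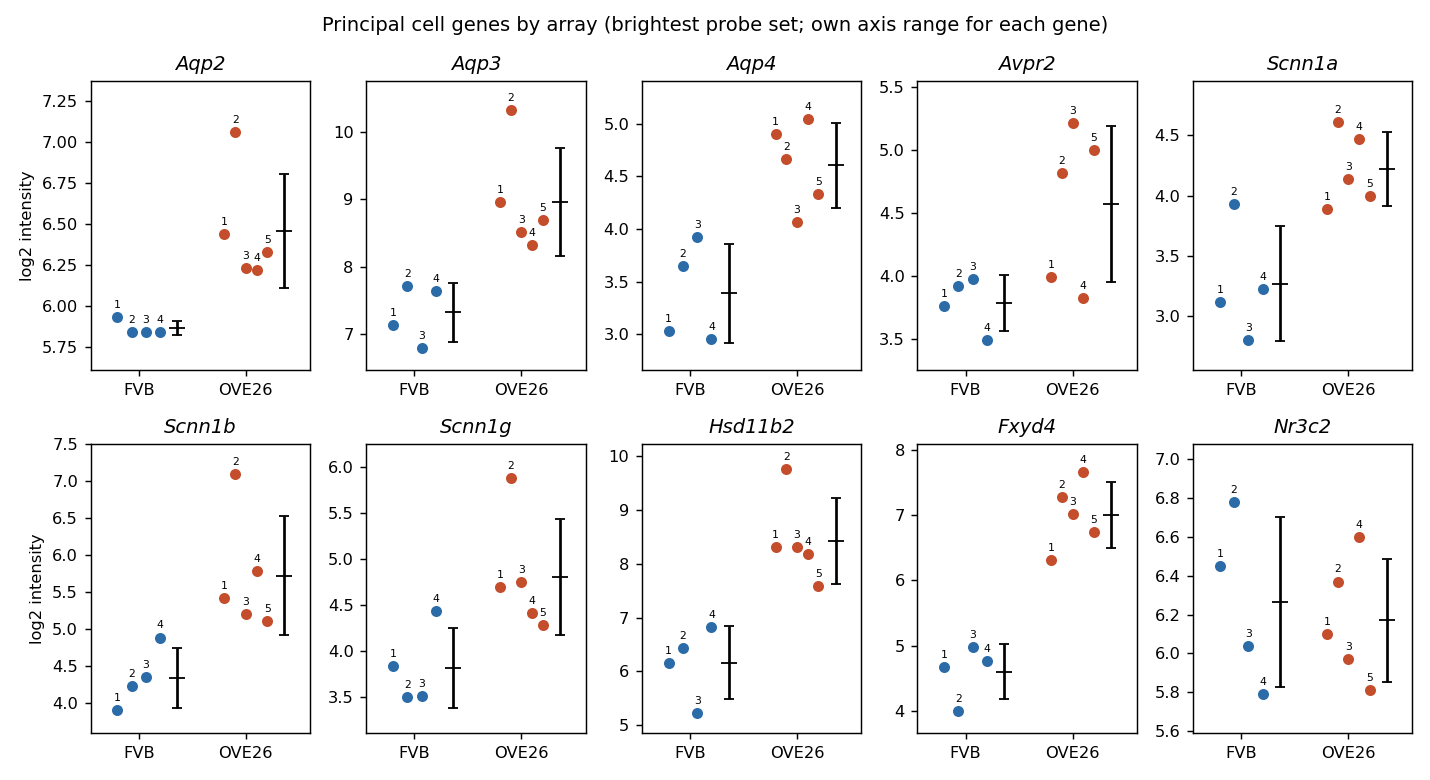
Log2 intensity of the 10 genes (brightest probe set of each) on every array, with FVB in blue and OVE26 in orange, array numbers above the points, and the mean with its SD as a black bar; each gene has its own axis range. The OVE26 arrays lie above all FVB arrays in 6 genes, OVE26 2 is the highest OVE26 array in 6 genes, and Nr3c2 overlaps throughout.

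Fxyd4, a small membrane protein of the collecting duct that raises the sodium affinity of the sodium pump, had the smallest p of the set. Its signal was 6.32, 7.28, 7.02, 7.66 and 6.74 in OVE26 1 to 5 and 4.67, 4.00, 4.98 and 4.77 in FVB 1 to 4. The lowest OVE26 array lay above the highest FVB array by 1.34 log2 units. The group means were 7.00 ± 0.51 (SD, n = 5) and 4.60 ± 0.42 (SD, n = 4), a 5.28-fold rise (difference 2.40, SE 0.28, 95% interval 1.78 to 3.02; limma, adjusted p = 0.00978). With arrays left out singly the differences ran from 2.20 to 2.57. Adjusted over genes, the call held in all 9 of these fits. Adjusted over all probe sets (limma, adjusted p = 0.0176 with all arrays), it held in 5 and was lost without OVE26 3, FVB 1, FVB 3 or FVB 4 (limma, adjusted p from 0.0596 to 0.0811). The call over genes ended with the mean of intercalated cell markers as a covariate (2.41, SE 0.53, limma, adjusted p = 0.306), where the SE grew. That mean was itself higher in every OVE26 array than in every FVB array, so this fit cannot separate it from the group. Among arrays with low Xist (2 OVE26, 3 FVB) the difference was 2.18 and the call ended too (limma, adjusted p = 0.134), and among those with high Xist (3 OVE26, 1 FVB) it was 3.02.

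Other members of the FXYD family, which regulate the same pump, did not pass. Fxyd2, the pump's gamma subunit in the tubule, was at 11.20 ± 0.30 (SD, n = 5) on the OVE26 arrays and 10.32 ± 0.64 (SD, n = 4) in FVB arrays, a difference of 0.88 (limma, adjusted p = 0.176). Fxyd6 differed by -0.67 (limma, adjusted p = 0.244), Fxyd1 by 0.01 and Fxyd5 by 0.12. The means of Fxyd3 and Fxyd7 (3.03 to 3.18) lay in both groups below the 25th percentile of an array's values (3.31 on average), the level under which signal is not told from background here, so no difference is given for them. Fxyd1, Fxyd3, Fxyd5, Fxyd6 and Fxyd7 were named after their values were seen.

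Upstream sequence is shown for 4 members, to set beside the values the stretch of genome that precedes each start: Fxyd4, which rose, Aqp3, whose groups did not overlap, and Aqp2 and Avpr2, the water channel and the receptor of the vasopressin pathway. The sequences are RefSeq's (GRCm38.p6), the 250 bases before the gene's start, 5′ to 3′ on the gene's strand, at chr6:117937336-117937585 (minus strand) for Fxyd4, chr4:41098184-41098433 (minus strand) for Aqp3, chr15:99578806-99579055 (plus strand) for Aqp2 and chrX:73891852-73892101 (plus strand) for Avpr2. Capitals mark matches on either strand to the motifs searched.
Fxyd4: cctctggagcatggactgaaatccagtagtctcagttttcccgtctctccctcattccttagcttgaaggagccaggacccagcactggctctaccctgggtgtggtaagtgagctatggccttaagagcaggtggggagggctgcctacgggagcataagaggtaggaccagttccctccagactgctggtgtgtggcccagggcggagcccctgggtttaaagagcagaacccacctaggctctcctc
Aqp3: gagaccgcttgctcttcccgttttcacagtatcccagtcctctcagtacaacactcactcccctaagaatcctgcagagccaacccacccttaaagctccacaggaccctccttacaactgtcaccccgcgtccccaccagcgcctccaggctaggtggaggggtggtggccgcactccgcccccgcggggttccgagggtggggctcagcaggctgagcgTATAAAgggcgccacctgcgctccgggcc
Aqp2: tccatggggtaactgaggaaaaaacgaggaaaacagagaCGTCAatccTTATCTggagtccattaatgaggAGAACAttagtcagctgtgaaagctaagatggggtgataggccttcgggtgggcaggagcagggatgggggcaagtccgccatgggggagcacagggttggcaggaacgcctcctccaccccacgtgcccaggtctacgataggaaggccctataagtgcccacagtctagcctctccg
Avpr2: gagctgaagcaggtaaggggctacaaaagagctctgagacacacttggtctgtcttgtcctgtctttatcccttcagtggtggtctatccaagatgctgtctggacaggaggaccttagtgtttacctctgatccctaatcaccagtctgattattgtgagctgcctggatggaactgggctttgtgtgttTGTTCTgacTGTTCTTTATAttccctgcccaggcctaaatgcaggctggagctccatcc
The motifs were the half-site shared by mineralocorticoid and glucocorticoid receptors (AGAACA), the cyclic AMP response element (TGACGTCA) and its half-site (TGACG, part of the former), a GATA factor site (AGATAA), a grainyhead-like site (AACCNGGTT) and the TATA box (TATAAA). Of the 10 genes, 7 had an entry, and Aqp4, Scnn1a and Hsd11b2 had none. The Aqp2 stretch held 1 AGAACA beginning 179 bases before the start, 1 TGACG at 211 and 1 AGATAA at 202, the last pair on the opposite strand. In Avpr2 there were 2 matches to AGAACA, at 59 and 50 bases before the start on the opposite strand. Read on the gene's strand, the nearer one shares its last base with a TATAAA match at 45, also on the opposite strand. Aqp3 held 1 TATAAA at 29 bases, and Fxyd4, Scnn1b, Scnn1g and Nr3c2 held no match. Among all 32851 stretches of this length in the table, AGAACA occurred in 16.1%, TGACG in 17.8%, AGATAA in 9.99%, TATAAA in 12.4%, TGACGTCA in 1.55% and AACCNGGTT in 0.240%. A match is a run of letters and no measure of binding.

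The 3 water channels differed in size of change and in how well their probe sets matched one another. Aqp4, a basolateral water channel of principal cells that is also abundant in brain, had 3 probe sets that did not move alike. Probe set 1434449_at read 5.03, 4.55, 5.82, 5.99 and 4.95 in OVE26 1 to 5 and 2.09, 1.71, 2.71 and 2.28 in FVB 1 to 4. All FVB arrays lay below the 25th percentile, and all OVE26 arrays lay above it. Signal of this probe set was thus at least 3.86-fold higher in OVE26 arrays (means 5.27 ± 0.62, SD, n = 5, and 2.20 ± 0.42, SD, n = 4; fitted difference 3.07, SE 0.32; limma, adjusted p = 0.0176 over all probe sets). The bound sets OVE26 against the 25th percentile or the measured FVB value, whichever was higher on each array. Leaving out arrays singly, the call held 5 times of 9. It was lost without OVE26 3 (difference 2.93), FVB 1 (3.04), FVB 3 (3.24) or FVB 4 (3.10), where the adjusted p from limma lay between 0.0596 and 0.0811. The intercalated markers as a covariate (4.01, adjusted p = 0.207) and the use of arrays with low Xist alone (3.15, adjusted p = 0.112) ended it too.

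The probe set that stood for Aqp4 among genes, 1425382_a_at, had the higher mean over all arrays and a smaller difference. It read 4.07 to 5.05 in OVE26 arrays, with a mean of 4.61 ± 0.40 (SD, n = 5), and 2.95 to 3.92 in FVB arrays, with a mean of 3.39 ± 0.47 (SD, n = 4). The groups did not overlap, and the difference of 1.22 did not pass (SE 0.26, limma, adjusted p = 0.0711). FVB 1 (3.03) and FVB 4 (2.95) lay below the 25th percentile, so the size of this difference is uncertain. The third, 1447745_at, read 2.72 to 4.74 in OVE26 and 2.35 to 2.79 in FVB arrays. All its FVB arrays and 3 of its OVE26 arrays lay below the 25th percentile, so neither a size nor a bound is given for its difference. It did not pass (limma, adjusted p = 0.368 over all probe sets). With the mean of the 3 probe sets as the gene's value, Aqp4 differed by 1.71 (SE 0.17, limma, adjusted p = 0.00582) and passed, so the call for this gene turned on how its probe sets were combined. That mean holds FVB values below the 25th percentile from all 3 probe sets, so its size is uncertain too.

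Aqp3, the basolateral channel for water and glycerol, read 8.96, 10.33, 8.52, 8.32 and 8.69 in OVE26 1 to 5 and 7.14, 7.72, 6.79 and 7.64 in FVB 1 to 4 by its brightest probe set, 1422008_a_at. OVE26 2 stood highest, and the lowest OVE26 array was above the highest FVB array by 0.60 log2 units. The difference of 1.64 did not pass (SE 0.38, 95% interval 0.78 to 2.50; limma, adjusted p = 0.0905). Without OVE26 2 it was 1.30 (SE 0.23) and passed (limma, adjusted p = 0.0472; the adjusted p with other single arrays left out reached 0.247). Probe set 1450460_at differed by 1.23 (SE 0.37), again without overlap, at 7.51 to 9.33 against 6.32 to 7.36. Probe set 1422007_at, dim in both groups, differed by 0.71 (SE 0.29), and 1447727_at stayed between 5.06 and 5.48 on all 9 arrays, a difference of 0.10 with an interval from -0.14 to 0.34. None of these 3 passed by limma (adjusted p from 0.183 to 0.738 over all probe sets).

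**Figure D2:**
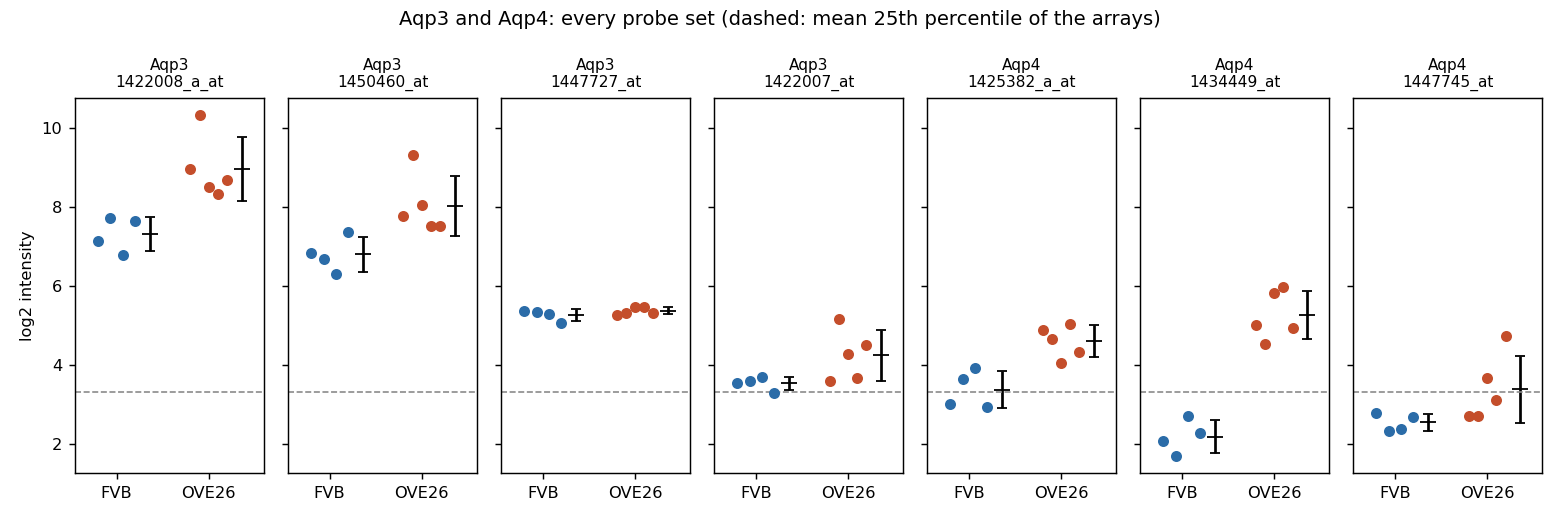
Log2 intensity of the 4 probe sets of Aqp3 and the 3 of Aqp4, with 1 point per array (FVB blue, OVE26 orange), the mean and SD as black bars, and the mean 25th percentile of the arrays (3.31) dashed. FVB arrays lie below the dashed line and OVE26 arrays above it for Aqp4 1434449_at, and Aqp3 1447727_at stays within 5.06 to 5.48 in both groups.

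Aqp2, the vasopressin-regulated channel of the luminal membrane, had the smallest difference of the 3 water channels by the probe sets that stood for the genes. Its single probe set read 6.44, 7.06, 6.23, 6.22 and 6.33 in OVE26 1 to 5 and 5.93, 5.84, 5.84 and 5.84 in FVB 1 to 4. Every OVE26 array was above every FVB array, by 0.29 log2 units at the least. In FVB 2, 3 and 4 the deposited linear intensity was exactly the same (57.3), which occurred for at least 3 FVB arrays in 2.60% of all probe sets and in none of the other 14 here. The SD of 0.04 in the FVB group therefore rests on 1 array that differed. The difference was 0.60 (SE 0.17, 95% interval 0.22 to 0.97) and did not pass (limma, adjusted p = 0.138). Without OVE26 2 it was 0.44 (adjusted p = 0.0752), and with the mean of the proximal markers as a covariate it passed at 0.57 (limma, adjusted p = 0.0461).

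Avpr2, the receptor through which vasopressin reaches the principal cell, overlapped between groups. It read 3.99, 4.82, 5.21, 3.83 and 5.00 in OVE26 1 to 5 and 3.76, 3.92, 3.98 and 3.49 in FVB 1 to 4. OVE26 2, 3 and 5 were high, and OVE26 1 and 4 lay close to or within the FVB range. The difference was 0.79 (SE 0.29; limma, adjusted p = 0.230). These 3 high arrays are the OVE26 arrays with high Xist. The difference was 1.09 among arrays with high Xist (3 OVE26, 1 FVB) and 0.17 among those with low Xist (2 OVE26, 3 FVB). FVB 2, the FVB array with high Xist, read 3.92, within the range of the other FVB arrays. With Xist less the mean of the Y-linked genes as a sex covariate the difference was 0.52 (limma, adjusted p = 0.319).

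The 3 subunits of the epithelial sodium channel were each higher on average in OVE26 arrays, and none passed. Scnn1b, the beta subunit, read 5.43, 7.10, 5.21, 5.79 and 5.11 in OVE26 1 to 5 and 3.91, 4.23, 4.35 and 4.89 in FVB 1 to 4, so that the groups did not overlap. OVE26 2 stood highest by 1.32 log2 units. The difference was 1.38 (SE 0.39, 95% interval 0.52 to 2.24; limma, adjusted p = 0.129), or 1.04 without OVE26 2. Scnn1g, the gamma subunit, ran from 4.28 to 5.88 in OVE26 and from 3.50 to 4.43 in FVB arrays, with overlap, and differed by 0.98 (SE 0.32; limma, adjusted p = 0.189). Scnn1a, the alpha subunit needed for the channel to reach the membrane, ran from 3.89 to 4.61 and from 2.80 to 3.93, and only FVB 2 reached into the OVE26 range. Its FVB mean of 3.27 was below the 25th percentile, though FVB 2 (3.93) was above it. With FVB arrays below the 25th percentile set to that level, the bound was 1.68-fold, a value that leaves out the spread between arrays. The fitted difference of 0.95 did not pass (SE 0.23, limma, adjusted p = 0.103). Without FVB 2 the difference was 1.17 and passed (limma, adjusted p = 0.0204; up to 0.268 with other single arrays left out).

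Hsd11b2, the enzyme that turns glucocorticoid into its inactive form and so leaves the mineralocorticoid receptor to aldosterone, read 8.31, 9.76, 8.32, 8.18 and 7.59 in OVE26 1 to 5. In FVB 1 to 4 it read 6.15, 6.43, 5.23 and 6.83. The groups stood 0.77 log2 units apart at their nearest arrays, with OVE26 2 the highest and FVB 3 the lowest. The difference of 2.27 (SE 0.43, 95% interval 1.32 to 3.23) just missed the threshold (limma, adjusted p = 0.0516). It passed at 0.05 under 7 of the 22 alternatives that changed the values, the model, the genes tested or the arrays, among them leaving out OVE26 2 (1.94, adjusted p = 0.0411) or FVB 2 (2.37, adjusted p = 0.0465) and testing only genes above the 40th percentile (2.27, adjusted p = 0.0404). With the intercalated markers as a covariate, whose mean itself separates the groups, the Hsd11b2 difference was 0.46 (SE 0.39).

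Nr3c2, the mineralocorticoid receptor itself, was the only member without a higher mean. It read 6.10, 6.37, 5.97, 6.60 and 5.81 in OVE26 1 to 5 and 6.45, 6.78, 6.04 and 5.79 in FVB 1 to 4, and the groups overlapped throughout. The difference was -0.10 with an interval from -0.60 to 0.41 (SE 0.22; limma, adjusted p = 0.899). Its direction turned without FVB 2 (0.07) and among arrays with low Xist (0.25). Nr3c1, the glucocorticoid receptor, differed by -0.23 (limma, adjusted p = 0.309).

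**Figure D3:**
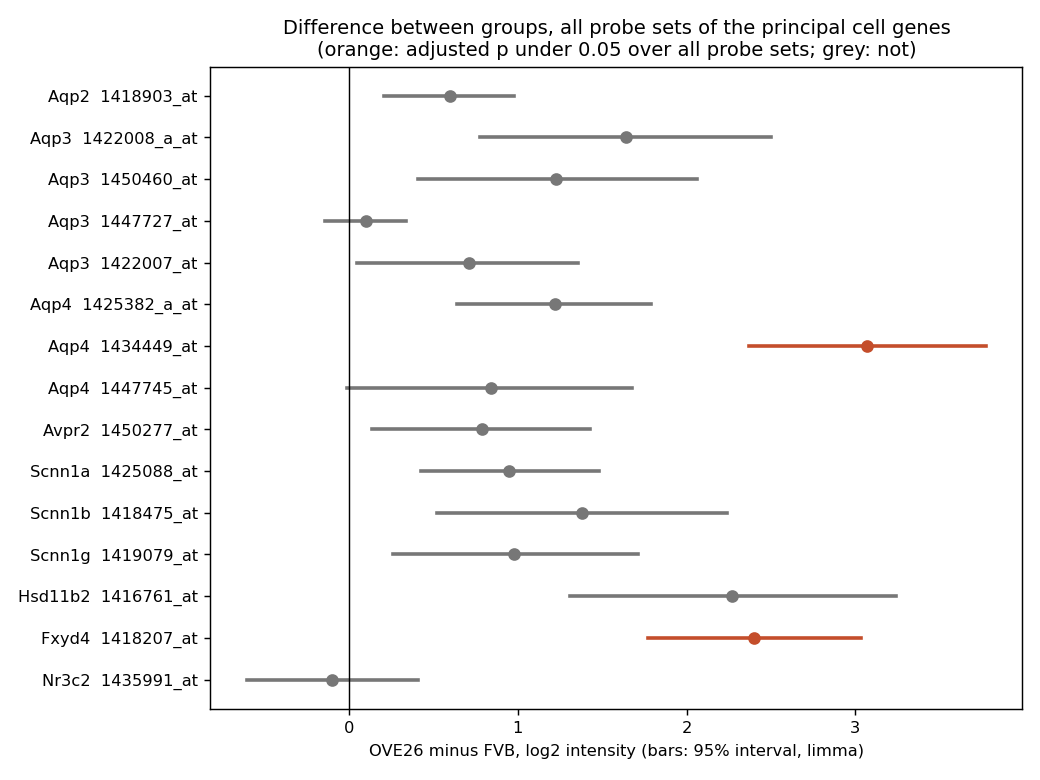
OVE26 minus FVB difference in log2 intensity of all 15 probe sets with the 95% interval from limma; orange marks an adjusted p under 0.05 over all probe sets. Fxyd4 (2.40) and Aqp4 1434449_at (3.07) are orange, and the intervals of Nr3c2, Aqp3 1447727_at and Aqp4 1447745_at include 0.

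The members did not share 1 pattern among the arrays of a group. OVE26 2 was the highest OVE26 array for 6 of the 10 genes (Aqp2, Aqp3, Scnn1a, Scnn1b, Scnn1g and Hsd11b2), OVE26 4 for 3 (Aqp4, Fxyd4 and Nr3c2) and OVE26 3 for Avpr2. The mean of the 10 genes, each centred over the arrays, was 1.23 in OVE26 2 and 0.23 to 0.50 in the other OVE26 arrays, against -0.81 to -0.56 in the FVB arrays. Without OVE26 2, 3 of the 10 genes passed (limma), and without OVE26 2 and OVE26 4 together 1 did. Deviations from the group means were averaged over the 6 members whose mean over all 9 arrays was at or above the 40th percentile of genes. Of these, Fxyd4 and Scnn1b lay below that cut in the FVB arrays alone. The average was 0.86 in OVE26 2 and between -0.41 and 0.20 elsewhere. Over the 9 arrays Scnn1b (r = 0.94) and Hsd11b2 (r = 0.91) followed this average and Fxyd4 (r = 0.29) did so weakly. The average holds these genes themselves. Against the mean of the other 5 members r was 0.88 for Scnn1b, 0.82 for Hsd11b2, 0.81 for Aqp2, 0.77 for Aqp3, 0.21 for Nr3c2 and 0.09 for Fxyd4. These values are descriptions without a test, and without the 2 arrays farthest from the median (OVE26 2 and OVE26 5) Aqp2 went from 0.84 to 0.20 against the average while Hsd11b2 kept 0.77. The 6 genes outside the set closest to the average were Fam219aos, Kpna1, Ngfr, Txndc11, Zdhhc1 and Trim26 (r from 0.93 to 0.95, or 0.60 to 0.75 without those 2 arrays), and their group differences ran from -0.14 to 0.37.

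**Figure D4:**
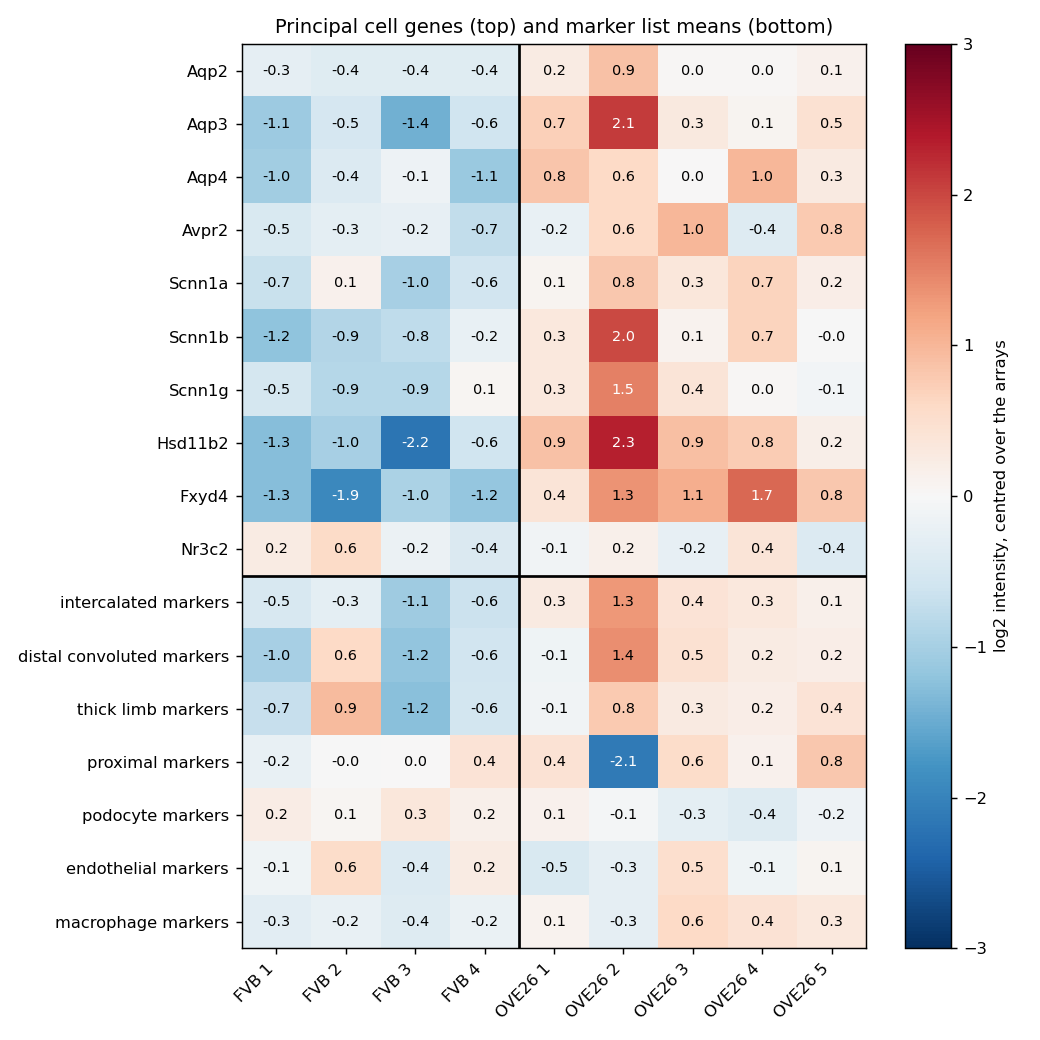
Log2 intensity centred over the 9 arrays (red above, blue below a gene's mean) for the 10 genes in the upper block and, in the lower block, the mean of each list of cell type markers; columns are arrays, FVB left and OVE26 right. OVE26 2 is the reddest column for most principal cell genes and the bluest for proximal markers, and the intercalated row is below 0 in every FVB array and above 0 in every OVE26 array.

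Among markers of other nephron cells, some of those of intercalated cells, which lie beside principal cells in the collecting duct, passed. For this and the following marker lists, the shares over all genes were 0.473% called higher and 0.132% lower. At an unadjusted p under 0.05 they were 9.03% higher and 6.07% lower. Of 13 intercalated cell markers measured, 3 rose and 10 did not pass (median difference 1.06), and their mean level ran from 5.75 to 6.91 in OVE26 and from 4.54 to 5.31 in FVB arrays. The 3 were the proton pump subunit Atp6v0d2 (2.88, limma, adjusted p = 0.0290), the anion exchanger Slc26a4 (2.14, limma, adjusted p = 0.0349) and the anion exchanger Slc4a9 (1.06, limma, adjusted p = 0.0244). At an unadjusted p under 0.05 (limma), 8 of the 13 were higher and 0 lower. The difference was above 0 in 12 (52.6% of all genes), and in 7 every OVE26 array lay above every FVB array (3.64%). For the 10 principal cell genes the counts were 9 higher, 9 above 0 and 6 without overlap. Of 7 distal convoluted tubule markers none passed by limma (0 called, 4 at an unadjusted p under 0.05, all higher; median 0.58), and of 10 thick limb markers none did (0 called, 3 at an unadjusted p under 0.05, all higher; median 0.55). Both lists overlapped between groups in mean level, at 7.29 to 8.82 against 6.24 to 8.03 and 8.39 to 9.29 against 7.25 to 9.45. Umod, the major protein of the thick limb, was at 11.16 ± 0.25 (SD, n = 5) on the OVE26 arrays and 10.94 ± 0.77 (SD, n = 4) in FVB arrays. Of 16 proximal markers none passed (0 called and 0 at an unadjusted p under 0.05; median 0.01). FVB 2 was the highest of all arrays for the thick limb list (centred mean 0.94). It was also the highest FVB array for the distal convoluted (0.60) and intercalated (-0.29) lists. For the principal cell genes it read -0.56, with the other FVB arrays at -0.81 to -0.57.

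Among the other lists, 3 of 10 parietal epithelial markers rose, all keratins (Krt8 by 2.32, Krt18 by 2.76 and Krt19 by 1.30; limma, adjusted p = 0.00978, 0.0283 and 0.0367), which collecting duct epithelium also makes. At an unadjusted p under 0.05 (limma), 6 of the 10 parietal markers were higher and 0 lower. Of 14 macrophage markers 0 were called by limma (6 higher and 1 lower at an unadjusted p under 0.05), with mean levels of 4.72 to 5.60 against 4.61 to 4.79. Of 8 urothelial markers, which would come from the renal pelvis, 0 were called by limma (1 higher at an unadjusted p under 0.05), with mean levels of 4.36 to 4.80 against 4.30 to 4.55. Of 13 endothelial and of 10 mesangial markers 0 were called by limma (1 higher and 1 lower in each list at an unadjusted p under 0.05; medians -0.22 and -0.16). Of 15 podocyte markers 0 were called by limma (7 lower at an unadjusted p under 0.05; median -0.35). With the intercalated marker mean as a covariate 0 of the 10 principal cell genes passed by limma. Aqp2 then differed by 0.02, Aqp3 by 0.05, Scnn1b by 0.14, Aqp4 by 1.34 and Fxyd4 by 2.41. The intercalated mean was itself higher in every OVE26 array than in every FVB array. The fit therefore cannot separate the covariate from the group, and no contrast between these genes is drawn from it. What part collecting duct cells among the sorted cells have in these differences was not tested.

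The genes that work beside the members were read from 6 lists of 68 genes, of which 64 were measured, 1 rose and 63 did not pass (limma). Their median difference was 0.18, against 0.01 for all genes. At an unadjusted p under 0.05, 20 were higher and 4 lower, where 9.03% of all genes were higher and 6.07% lower. Of all genes 0.473% were called higher and 0.132% lower. The same shares stand beside the counts of each list below.

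No regulator of the sodium channel passed: of 16 measured, 0 were called by limma (7 higher and 0 lower at an unadjusted p under 0.05; median 0.38). St14, the membrane protease matriptase, was at 6.93 ± 0.32 (SD, n = 5) on the OVE26 arrays and 5.71 ± 0.63 (SD, n = 4) in FVB arrays, without overlap (1.22; limma, adjusted p = 0.0856). Prss8, the channel-activating protease prostasin, differed by 0.55, also without overlap (limma, adjusted p = 0.184), and Stk39, a kinase upstream of sodium chloride cotransport, by 1.10 (limma, adjusted p = 0.159). Sgk1, the aldosterone-induced kinase that keeps the channel at the membrane, was bright in both groups, at 11.07 ± 0.53 (SD, n = 5) and 10.92 ± 0.42 (SD, n = 4), and differed by 0.15 (limma, adjusted p = 0.872; named after its value was seen).

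In the vasopressin and water list of 17 genes, Rab11a, a small GTPase of the recycling vesicles through which Aqp2 passes, rose by 0.52 and the other 16 did not pass (limma, adjusted p = 0.0494; median of the list -0.02). With arrays left out singly Rab11a passed only without FVB 2 (adjusted p = 0.0419; up to 0.150 in the other 8 fits); with the mean of its probe sets it differed by 0.15 (adjusted p = 0.524). Ptger1, a prostaglandin E2 receptor that opposes sodium uptake, was at 5.32 ± 0.59 (SD, n = 5) in OVE26 arrays and 6.32 ± 0.29 (SD, n = 4) in FVB arrays (limma, adjusted p = 0.138). Avpr1a, the vasopressin receptor of vessels and intercalated cells, differed by 1.00 (limma, adjusted p = 0.160) and Ptger4 by -0.31 (limma, adjusted p = 0.194).

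Of 9 genes of the sodium pump and the basolateral potassium channels 0 were called by limma (4 higher and 1 lower at an unadjusted p under 0.05; median 0.12). Kcnj10, a basolateral potassium channel of the distal nephron, differed by 1.28 (limma, adjusted p = 0.185) and Atp1b1, the pump's beta subunit, by 0.59 (limma, adjusted p = 0.229). Of 8 other aquaporins 0 were called by limma (2 higher at an unadjusted p under 0.05; median 0.23). Aqp6, a channel of intercalated cell vesicles, read 7.44 ± 1.25 (SD, n = 5) against 5.29 ± 0.42 (SD, n = 4) without overlap (2.15; limma, adjusted p = 0.113), Aqp7, a glycerol channel, differed by 0.78 without overlap (limma, adjusted p = 0.129) and Aqp11 by 0.77 (limma, adjusted p = 0.332). Of 10 transcription factors of the collecting duct 0 were called by limma (3 higher at an unadjusted p under 0.05; median 0.43). Tfcp2l1, a factor of collecting duct cell types, was at 7.35 ± 0.37 (SD, n = 5) against 5.84 ± 0.76 (SD, n = 4) without overlap (1.51; limma, adjusted p = 0.0794), Emx2 differed by 0.85 (limma, adjusted p = 0.204) and Hoxd8 by 0.42 (limma, adjusted p = 0.198). Gata3, a factor of principal cells that mesangial cells also express, differed by -0.34 (limma, adjusted p = 0.791; named after its value was seen).

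Of 4 steroid receptor and enzyme genes measured 0 were called by limma (1 higher and 1 lower at an unadjusted p under 0.05; median 0.01). Fkbp5, a cochaperone induced by glucocorticoid and mineralocorticoid receptors, was at 9.07 ± 0.90 (SD, n = 5) on the OVE26 arrays and 7.15 ± 0.90 (SD, n = 4) in FVB arrays, with overlap (1.92, SE 0.51; limma, adjusted p = 0.120). Fkbp4 differed by 0.25 (limma, adjusted p = 0.528).

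**Figure D5:**
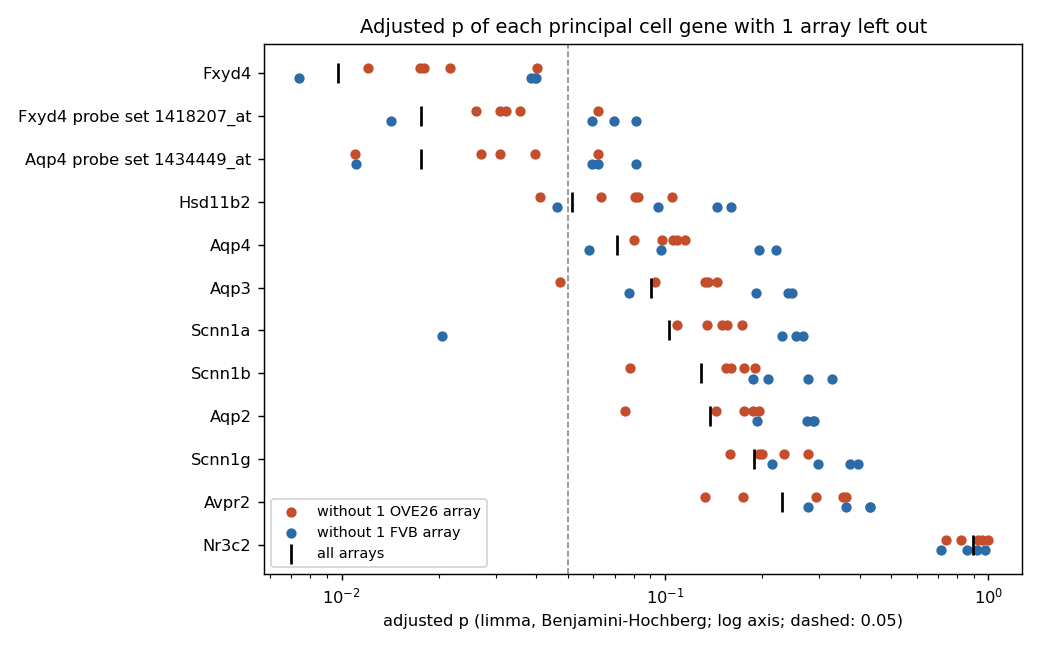
Adjusted p from limma (log axis, threshold 0.05 dashed) for the 10 genes and for the probe sets Fxyd4 1418207_at and Aqp4 1434449_at with each array left out, orange for OVE26 and blue for FVB arrays, and the value with all arrays as a black tick. Rows named as probe sets are adjusted over all probe sets and the others over genes. Fxyd4 stays left of the dashed line in all 9 fits over genes and in 5 over probe sets, Aqp4 1434449_at in 5 over probe sets, Hsd11b2 in 2, and Aqp3 and Scnn1a in 1 each.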

How the data were processed

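RNA of sorted podocytes was amplified, biotin-labelled and read on 1 array per mouse. Per the submitters' processing notes RMA and Partek were used, with no version or setting given there. The authors deposited probe set intensity values; their range shows a linear scale, so they were turned to log2 before any test. Of 45101 probe sets, 64 controls were left out. Symbols came from the platform annotation (1 symbol for 34945 probe sets, several for 932, none for 9160), and the brightest probe set over all arrays stood for a gene, with no filter on dim genes. Groups, taken from the sample titles, were compared with limma 3.58.1 in R 4.3.3 (lmFit, eBayes, 2-sided, Benjamini-Hochberg over 18193 genes, or over 45037 probe sets tested singly), and the code was tested on simulated data. No depth applies to arrays, whose number (5 and 4) limits the precision; the median SE of a difference was 0.16. The members, lists, markers and alternatives were chosen with earlier results of these data known. Every member is named; from pathway lists the genes that passed and up to 3 more with the smallest p, and from marker lists those that passed, with Podxl and Umod of the brightest in FVB arrays. Other named genes are said to be chosen after their values were seen.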

Additional observations from a re-analysis of the deposited data

Results flagged for a closer look

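Both groups of Aqp2 had 1 array that stood apart, by the gap to its nearest neighbour over the group's range. OVE26 2 was at 7.06 with the next OVE26 array at 6.44 (gap over range 0.74, above Dixon's 95% critical value for 5 arrays). FVB 1 was at 5.93 with the other 3 FVB arrays at 5.84 (gap over range 1.00, above that for 4 arrays), where the identical deposited values of those 3 make the ratio 1 whatever the gap. In all, 30 groups of values (15 probe sets in 2 groups) were examined, and chance flags about 1 in 20 of such groups.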

How the results depend on the processing

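Of 10 genes, 1 passed. The count was 3 with probe sets averaged per gene, 2 with the filter on dim genes (6 of the 10 tested), 2 with the intensity trend, 4 with array weights, 4 with the proximal covariate, 4 at a threshold of 0.1, and 0 with the replicate block, the intercalated covariate or only arrays with low Xist (added after seeing the data). With 1 array left out it was 1 to 3 (3 without OVE26 2 or FVB 2). The dim filter on genes used the mean over all 9 arrays (cut 5.03). Fxyd4 and Scnn1b, with FVB means of 4.60 and 4.34, entered it only through their OVE26 values. The filtered count is therefore no separate support. Of 15 probe sets 2 passed: 1 with the dim filter (8 tested), 4 at 0.1, 0 at 0.01, 0 with the replicate block, the intercalated covariate or low-Xist arrays, and 0 to 3 with 1 array left out, 0 without OVE26 3, FVB 1, FVB 3 or FVB 4. Of the 64 pathway genes 1 passed, 0 with the mean of probe sets and 0 to 9 with 1 array left out, 9 without FVB 2. No member was called lower under any of these settings. Directions turned with the intercalated covariate for Scnn1g (-0.12), Aqp3 1422007_at (-0.10) and Aqp3 1450460_at (-0.22), and for Nr3c2 without FVB 2 (0.07; -0.26 to 0.07 over single arrays left out) and in low-Xist arrays (0.25); the cause was not tested. Under the block Fxyd4 differed by 2.47 (adjusted p = 0.0759) and Aqp4 1434449_at by 3.15 (adjusted p = 0.0629); same-numbered mice are not said to be related, their deviations correlated between -0.21 and 0.13, and 0 of 4 numbers matched best with their own. Quantile and median scaling kept the median of all genes at 0.01 to 0.02. A bound is given where the FVB mean lay below the 25th percentile and every OVE26 array lay above it.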
